A study of Mus musculus with 12 samples.

Results

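The genes described are 7 protein arginine methyltransferases (Prmt1, Prmt2, Prmt3, Prmt5, Prmt6, Prmt7 and Carm1) and Wdr77, the partner protein of Prmt5. They were chosen by name: every row of the gene table whose Ensembl identifier carries 1 of these 8 symbols was taken, which gave 8 of 55487 genes. Protein arginine methyltransferases transfer methyl groups from S-adenosylmethionine to arginine side chains of histones, RNA-binding proteins and splicing factors. Type I enzymes (Prmt1, Prmt2, Prmt3, Prmt6 and Carm1) leave asymmetric dimethylarginine, the type II enzyme Prmt5 leaves symmetric dimethylarginine, and Prmt7, the type III enzyme, leaves monomethylarginine. In male germ cells symmetric dimethylarginine on PIWI proteins and on the helicase Ddx4 is read by Tudor domain proteins of the germ granule.

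The data are RNA-seq libraries of male germ cells taken from mouse testis with 3 libraries at each of 4 stages: E13.5 and E16.5, counted in embryonic days, and P0 (birth) and P3, counted in days after birth. The cells came from mice that carry the Mvh-Venus transgene, in which a fluorescent protein is driven from the germ cell gene Mvh (Ddx4), and they were described as gonocytes, the germ cells of the fetal and newborn testis. All 12 sample titles and source names give the mice as wild type, whereas the genotype entries read Morc1 (+/-) at E13.5 and P0 and Morc1 (-/-) at E16.5 and P3. If those entries were right, genotype and stage cannot be told apart in any comparison between a stage of each kind. Morc1 was present in every library, with 1621, 1830.3 and 1640.5 normalized counts at E13.5, 32916, 32890.2 and 28328 at E16.5, 7708, 7501 and 7279.9 at P0 and 10929, 10584 and 11129 at P3, so the libraries whose entry reads Morc1 (-/-) held the most. The sources used here do not say whether the libraries of a stage came from separate animals, pools or litters, so the p-values below measure only the spread between these libraries, which may be technical. Libraries are called 1, 3 and 4 after the numbers in the table's column names, and values are always listed in that order.

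Recovered reads per library ran from 40946616 to 51533747. All 6 germ cell markers checked (Ddx4, Dazl, Mael, Dnd1, Tex101 and Nanos2) were detected at every stage, and their summed level was 244003 to 253496 normalized counts at E13.5, 231830 to 257235 at E16.5, 134078 to 141200 at P0 and 233333 to 254922 at P3. Members of that sum did not move alike: from E13.5 to E16.5 the means went from 139041 to 35953 for Dazl, from 14374 to 76214 for Mael and from 1127 to 15738.5 for Tex101. Sertoli cells are the somatic nurse cells of the tubule. Their summed markers were 896 to 1503 at E13.5, 1377 to 2614 at E16.5, 2931 to 5468 at P0 and 1186 to 1850 at P3. All 8 of these markers were detected at every stage. Leydig cells make steroids. Their summed markers were 730 to 939 at E13.5, 812 to 8184 at E16.5, 1494 to 7281 at P0 and 499 to 527 at P3. Insl3 was at 0 in all P3 libraries but low elsewhere too, with its highest stage mean of 7.05 at P0. From E13.5 to P3 in order of stage, summed peritubular and mesenchymal markers were 172 to 251, 1374 to 1795, 3008 to 3145 and 1463 to 1688. Endothelial markers summed to 4469 to 5207, 3715 to 3813, 1406 to 1647 and 666 to 827, blood cell markers to 66.3 to 443, 1791 to 2513, 1599 to 2532 and 291 to 546, and macrophage markers to 38.1 to 88.3, 1012 to 1172, 126 to 365 and 269 to 315. The endothelial sum at E13.5 was mostly Pecam1, with a mean of 4618 there and 282 at E16.5. Cdh5, Kdr, Tek and Vwf went the other way, from 9.92, 2.84, 98.0 and 27.7 to 29.8, 38.5, 387 and 3029. At E16.5 the macrophage sum was mostly Cd68 (938) and the blood cell sum mostly Alas2 (1476). All 5 mast cell markers were at 0 at E13.5 and summed to 1448 to 3013 at P0. In bulk libraries such as these, fewer cells of a type and less RNA per cell cannot be told apart. All these sums use the deposited scaling, and differences between stages, as in the germ cell sum at P0, depend on it. The numbers by which reads were divided averaged 0.939 at E13.5 and 1.94 at P0, and other scalings gave other numbers.

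Normalized counts are read counts divided by a size factor for each library. Differences were tested with limma on log2(normalized count + 1), with Benjamini-Hochberg adjustment over 22384 genes, and a gene was called at an adjusted p under 0.05. All 8 members passed the filter on low counts and all 8 differed among the 4 stages by the F-test, at adjusted p from 1.60e-15 for Wdr77 to 1.12e-11 for Prmt7. That count says little about these genes, since 95.2% of all genes tested did so as well.

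From E13.5 to E16.5, 7 of 8 members fell, as 34.6% of all genes tested did, and 1, Prmt2, rose (45.5% of all genes). From P0 to P3 those 7 members rose (40.1%) and Prmt2 fell (36.4%). The highest stage mean was at E13.5 and the lowest at P0 for 7 of 8 members, a pattern held by 19.1% of all genes tested. The sequence of a fall to E16.5, a further fall to P0 and a rise to P3 was met by those 7 members and by 14.6% of all genes, and the sequence of a rise to E16.5 followed by falls to P0 and to P3 was met by Prmt2 and by 4.01% of all genes. How many members met them depended on the scaling of the libraries. When each library was scaled to the same total, 3 members (Prmt1, Carm1 and Wdr77) were highest at E13.5 and lowest at P0 and 1 met the fall, fall and rise, with median-of-ratios scaling 6 and 4, and with TMM scaling 7 and 5. Prmt2 met its own sequence under all 5 scalings tried. They were the deposited one, those just named and the poscounts option of DESeq2. Poscounts factors lay near the deposited ones (at P0 1.95, 1.87 and 2.09 beside 1.92, 1.84 and 2.07), so that scaling adds little to the comparison. Shares of all genes were taken with the deposited scaling only, so the member counts under other scalings cannot be set against a share. These patterns were named after the values were seen, so the shares describe how common each one was.

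**Figure D1:**
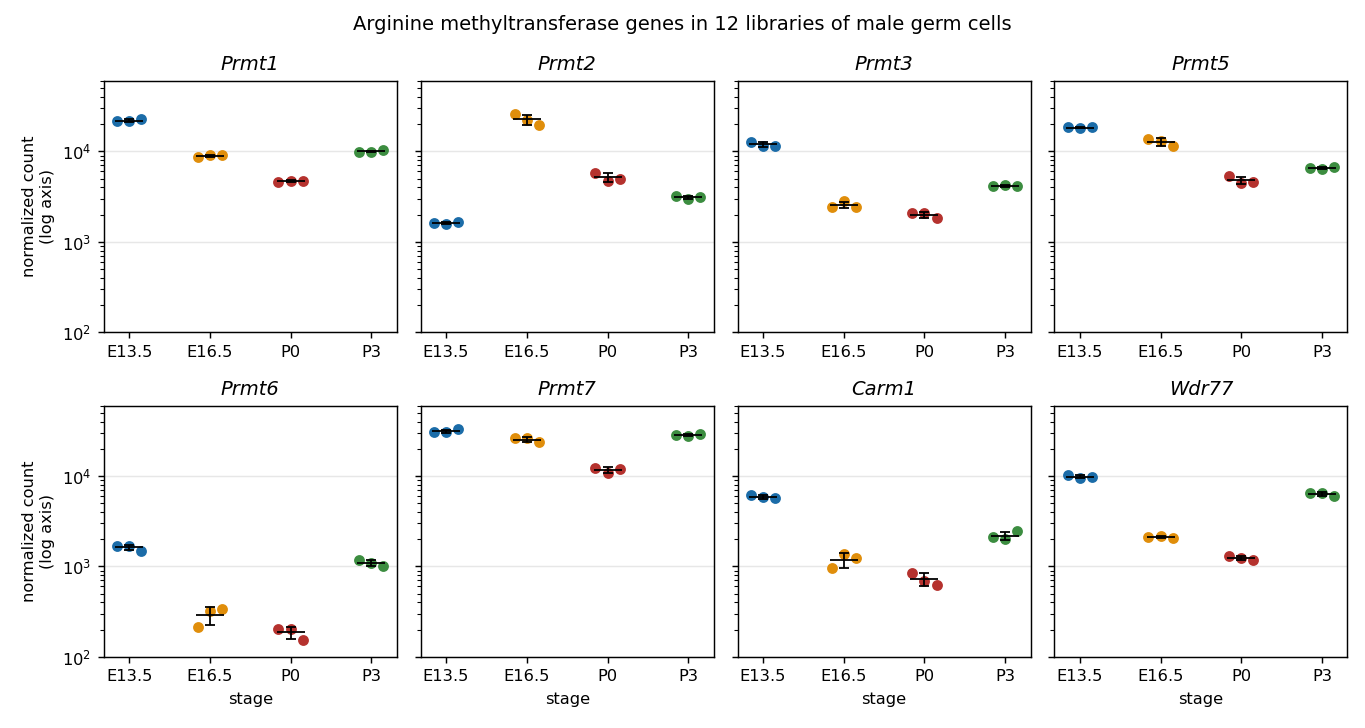
Normalized counts (log scale) of the 8 members at E13.5, E16.5, P0 and P3; points are the 3 libraries of a stage and black bars the stage mean ± SD. Prmt2 climbs from 1615 to 22585 between E13.5 and E16.5 while the other members go down. With this deposited scaling all members but Prmt2 are lowest at P0, and with equal library totals only 3 of them are both highest at E13.5 and lowest at P0.

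The stretches before the transcription start sites of Prmt1, Prmt2, Prmt3 and Prmt5 are printed because they show Prmt2, which moved against the other members at E16.5 and again at P3, beside 3 of those members. They come from the RefSeq promoter windows of build GRCm38.p6, 250 bases before to 50 after a start, which held 7 of the 8 members and no entry for Carm1. Only the part of each window outside annotated exons is shown, 5′ to 3′ on the gene's own strand. Capitals mark matches, on either strand, to a CCAAT box (CCAAT), an E-box (CACGTG), an ETS site (CCGGAAG) or a GC box (GGGCGG). Prmt1 is at chr7:44986569-44986670 on the minus strand, Prmt2 at chr10:76237866-76238115 on the minus strand, Prmt3 at chr7:49778108-49778345 on the plus strand and Prmt5 at chr14:54517526-54517720 on the minus strand.
Prmt1: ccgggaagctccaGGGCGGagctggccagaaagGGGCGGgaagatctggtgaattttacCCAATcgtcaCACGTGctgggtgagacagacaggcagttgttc
Prmt2: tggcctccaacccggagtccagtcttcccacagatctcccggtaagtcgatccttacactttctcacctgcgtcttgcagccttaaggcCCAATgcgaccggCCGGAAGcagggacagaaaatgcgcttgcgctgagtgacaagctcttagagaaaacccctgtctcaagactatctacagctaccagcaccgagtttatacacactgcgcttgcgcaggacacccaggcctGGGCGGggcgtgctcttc
Prmt3: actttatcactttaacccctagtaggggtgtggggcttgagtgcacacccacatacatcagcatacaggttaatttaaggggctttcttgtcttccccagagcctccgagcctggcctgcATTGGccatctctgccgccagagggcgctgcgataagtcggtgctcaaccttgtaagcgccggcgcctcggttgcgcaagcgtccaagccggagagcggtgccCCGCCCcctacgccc
Prmt5: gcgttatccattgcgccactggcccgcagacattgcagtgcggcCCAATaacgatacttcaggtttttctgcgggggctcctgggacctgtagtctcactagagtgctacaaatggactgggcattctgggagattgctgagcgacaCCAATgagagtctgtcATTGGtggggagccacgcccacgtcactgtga

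Over the full windows of 300 bases, the CCAAT box was found in 4 of 7 members (Prmt1, Prmt2, Prmt3 and Prmt5) and in 37.36% of 32544 mouse promoter windows. The GC box was found in 5 of 7 (all but Prmt5 and Prmt6) and in 35.88% of windows. The E-box was in the windows of Prmt1, Prmt3 and Wdr77, 3 of 7 against 7.166%, and the ETS site in those of Prmt2 and Prmt3, 2 of 7 against 8.914%. No window of the 7 held the 4 E2F words searched (TTTCCCGC, TTTCGCGC, TTTGCCGC and TTTGGCGC, in 2.28% of windows) or the palindromic NRF1 consensus (in 0.9741%). The windows of Prmt1, Prmt2, Prmt3 and Prmt5 held 17, 20, 24 and 16 CpG dinucleotides, where the median window held 7. The words of the E-box, the ETS site and the GC box hold a CpG themselves, and the 32544 windows were not matched for CpG. A match of letters is a description only.

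Prmt1, which makes most of the asymmetric dimethylarginine of mammalian cells (ENSMUSG00000109324, chr7:44975989-44986568, minus strand), was high at E13.5, with 21481, 21531 and 22749 normalized counts. It stood at 8638, 9062 and 9109.8 at E16.5, at 4557, 4744 and 4715 at P0 and at 9934, 9834 and 10249 at P3. Libraries of any 1 stage were close together, and no 2 stages overlapped, although P3 came near to E16.5. Prmt1 fell by 1.29 on the log2 scale from E13.5 to E16.5 (SE 0.0587, adjusted p = 3.27e-12) and fell by 0.94 more to P0 (adjusted p = 6.97e-10). It then rose by 1.10 to P3 (adjusted p = 4.09e-11). At P3 the mean was 10006 ± 216 (SD, n = 3), 0.16 above the E16.5 mean of 8937 ± 259.9 (SD, n = 3) on the log2 scale (adjusted p = 0.0209). That last call was lost without E16.5 library 1 or P3 library 4, and with TMM scaling (0.09), and its sign turned when libraries were scaled by equal totals (-0.01) or by median of ratios (-0.02).

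Prmt2 is a type I enzyme of weak activity that also acts as a coactivator of nuclear receptors (ENSMUSG00000020230, chr10:76207222-76237865, minus strand). It was low at E13.5, with 1621, 1582 and 1642 normalized counts, and stood at 25617, 22435 and 19702 at E16.5. At P0 it had 5771, 4718 and 4953 and at P3 3190.1, 2984 and 3157. The lowest E16.5 library was above the highest P0 library, and every P3 library lay between those of E13.5 and those of P0. Prmt2 rose by 3.80 on the log2 scale to E16.5, 13.9-fold (SE 0.0916, adjusted p = 2.72e-15). It fell by 2.13 to P0 (adjusted p = 9.16e-12) and by 0.72 to P3 (adjusted p = 2.02e-06), and at P3 it was still 0.94 above E13.5 (adjusted p = 9.11e-08). Its spread was the widest of the 8 members in absolute terms at E16.5 (22585 ± 2960, SD, n = 3). In those 3 libraries the summed Leydig markers were 812, 1512 and 8184 and the summed germ cell markers 257235, 253971 and 231830.0. Sertoli sums were 1377, 1947 and 2614, blood cell sums 1791, 1926 and 2513 and endothelial sums 3715, 3772 and 3813. These sums and the Leydig sums ran in the reverse order of Prmt2. The germ cell sums and the peritubular and mesenchymal sums (1795, 1475 and 1374) had its order. The macrophage sums (1172, 1012 and 1046) had neither. Orders over 3 libraries are a description only. Between E13.5 and E16.5 the sums of peritubular, blood cell and macrophage markers also became higher in every library. The part of other cells in the Prmt2 result was not tested.

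Prmt3, a cytosolic type I enzyme that methylates the ribosomal protein Rps2 (ENSMUSG00000030505, chr7:49778346-49858265, plus strand), had 12739, 11537 and 11502 normalized counts at E13.5 and 2450.5, 2790.4 and 2420.3 at E16.5. P0 libraries gave 2093, 2082 and 1809, and P3 libraries 4097, 4251 and 4139. E16.5 and P0 were near each other without overlap, and P3 was above both and far under E13.5. Prmt3 fell by 2.22 on the log2 scale to E16.5 (SE 0.0790, adjusted p = 1.75e-13) and by 0.36 to P0 (adjusted p = 9.45e-04), then rose by 1.06 to P3 (adjusted p = 2.56e-09). The step from E16.5 to P0 missed the threshold with TMM (-0.14) and median-of-ratios scaling (-0.10) and with equal totals it was called in the opposite direction (0.31, adjusted p = 0.00108). Its substrate Rps2 also fell to E16.5, by 1.40 (adjusted p = 1.66e-04), and gave 0.12 from P0 to P3, which was not called (adjusted p = 0.697). Rps2 has near-identical copies in the genome, so its counts are uncertain.

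Carm1, the type I enzyme also known as Prmt4 that methylates histone H3 and coactivators (ENSMUSG00000032185, chr9:21546894-21592623, plus strand), had 6239, 5796 and 5695 normalized counts at E13.5. It had 950.4, 1371 and 1226 at E16.5, 853, 687 and 625 at P0 and 2096, 2003 and 2463 at P3. From high to low the stages ran E13.5, P3, E16.5 and P0, with no overlap. Carm1 fell by 2.34 on the log2 scale to E16.5 (SE 0.131, adjusted p = 4.97e-11) and by 0.71 to P0 (adjusted p = 1.89e-04), and rose by 1.61 to P3 (adjusted p = 8.59e-09). With equal totals the step to P0 was -0.05 and not called. Of its exon bases, 21.13% are shared with Yipf2 on the other strand, whose stage means were 1621, 1151, 466 and 1411 from E13.5 to P3. Whether the counting used strand is not given in the sources used here, and the part of Yipf2 reads in the Carm1 values was not tested.

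Prmt6, a nuclear type I enzyme that marks histone H3 (ENSMUSG00000049300, chr3:110246109-110250998, minus strand), was the least abundant member per exon length at all 4 stages. Its normalized counts were 1696, 1681 and 1484 at E13.5, 214, 322 and 338 at E16.5, 204, 201 and 153 at P0 and 1167, 1089 and 1020.3 at P3. Little separated the lowest E16.5 library from the highest P0 library, and P3 was nearer to E13.5 than to P0. Prmt6 fell by 2.50 on the log2 scale to E16.5 (SE 0.158, adjusted p = 2.47e-10) and by 0.63 to P0 (adjusted p = 0.00257). Its rise to P3, by 2.56 or 5.89-fold, was the largest of the 8 members (adjusted p = 2.58e-10). The step from E16.5 to P0 came to 0.03 with equal totals, and the difference of -0.57 between P3 and E13.5 came to -0.24 and was not called. An antisense gene, C130013H08Rik, shares 23.45% of the exon bases and had stage means of 24.8, 22.2, 42.1 and 64.9, below Prmt6 throughout.

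Prmt5, the main source of symmetric dimethylarginine (ENSMUSG00000023110, chr14:54507187-54517525, minus strand), declined by smaller steps at first. Its normalized counts were 18487, 17919 and 18585 at E13.5, 13799, 12890.3 and 11432 at E16.5, 5318, 4521 and 4624 at P0 and 6479, 6447 and 6659 at P3. On average E16.5 was nearer to E13.5 than to P0, and P3 was only a little above P0. Prmt5 fell by 0.53 on the log2 scale to E16.5 (SE 0.0775, adjusted p = 8.07e-06) and by 1.40 to P0 (adjusted p = 1.60e-10), then rose by 0.44 to P3 (adjusted p = 7.07e-05), a step that missed the threshold with TMM (0.15) and median-of-ratios scaling and was called in the opposite direction with equal totals (-0.40, adjusted p = 1.21e-05). The step to E16.5 also missed it with equal totals (-0.03). At P3 it was 2.81-fold under E13.5 (adjusted p = 3.50e-11).

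Wdr77 (also MEP50), the WD-repeat protein that binds Prmt5 and presents its substrates (ENSMUSG00000000561, chr3:105959369-105970037, plus strand), had 10256, 9533 and 9773 normalized counts at E13.5 and 2126, 2143 and 2076 at E16.5. P0 libraries gave 1306, 1251 and 1164, and P3 libraries 6535, 6549 and 6006. The 3 E16.5 libraries lay within a few percent of each other, and the stages did not overlap. Wdr77 fell by 2.22 on the log2 scale to E16.5 (SE 0.0686, adjusted p = 3.43e-14) and by 0.77 to P0 (adjusted p = 5.22e-08), and rose by 2.36 to P3 (adjusted p = 6.05e-14). With equal totals the step to P0 was -0.11 and not called. It shares 31.46% of its exon bases with other genes: 1389 bases with Gm42890 on the same strand, with stage means of 10.6, 6.52, 13.0 and 8.61 from E13.5 to P3, and 337 bases with Atp5f1 on the other strand, with stage means of 28201, 2532, 3959 and 16585. The abundant Atp5f1 was also high at E13.5 and P3 and low at E16.5 and P0, and the part of either gene in the Wdr77 values was not tested.

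Prmt5 and Wdr77 did not keep a constant ratio. Exon lengths merge all annotated transcripts, so the size of a ratio between genes, and whether it is above 1, is approximate. Per kilobase of exon, Prmt5 over Wdr77 was 2.205, 2.30 and 2.33 at E13.5, 7.94, 7.36 and 6.74 at E16.5, 4.98, 4.42 and 4.86 at P0 and 1.21, 1.20 and 1.36 at P3. This ratio was highest at E16.5 and lowest at P3, with no overlap between stages, and as a ratio within a library it is the same under any scaling of libraries. With Clns1a (pICln), the adaptor that brings Sm proteins to Prmt5, the ratio was 1.003 ± 0.0266, 3.57 ± 0.484, 1.86 ± 0.233 and 0.718 ± 0.0468 (SD, n = 3 each) from E13.5 to P3, in the same order of stages. With Riok1, the adaptor that competes with Clns1a, it was 11.9 ± 0.764, 11.97 ± 1.08, 7.23 ± 0.701 and 6.59 ± 0.230 (SD, n = 3 each). The Riok1 ratio thus overlapped between E13.5 and E16.5, where the ratios to Wdr77 and Clns1a did not. With Coprs, which ties Prmt5 to histone H4, it was 1.267 ± 0.0708, 1.02 ± 0.150, 0.736 ± 0.0722 and 0.496 ± 0.0770 (SD, n = 3 each). That ratio was lower at every later stage, without overlap, and so went down from E13.5 to E16.5 where those to Wdr77 and Clns1a went up. Prmt2 over Prmt1 gave 0.0747 ± 0.00169, 2.57 ± 0.410, 1.12 ± 0.145 and 0.315 ± 0.00929 from E13.5 to P3 (SD, n = 3 each), so that Prmt2 was the lower of the pair at E13.5 and P3 and the higher at E16.5. Prmt7 over Prmt5 was 1.10 ± 0.0386, 1.29 ± 0.0490, 1.56 ± 0.0859 and 2.82 ± 0.0279 (SD, n = 3 each), above 1 in every library and highest at P3.

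**Figure D2:**
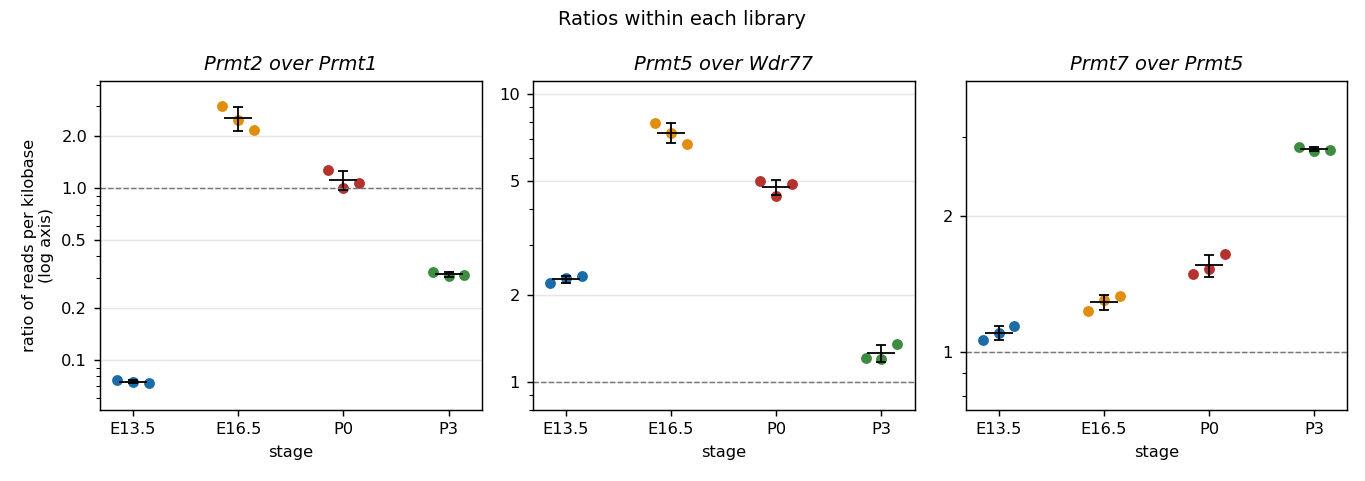
Ratios of levels per kilobase of exon within each library at the 4 stages, on a log axis, for Prmt2 over Prmt1, Prmt5 over Wdr77 and Prmt7 over Prmt5; points are the 3 libraries, black bars the mean ± SD and the dashed line equal levels. Prmt5 over Wdr77 goes from 2.28 at E13.5 to 7.34 at E16.5 and is lowest at P3.

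Prmt7, which monomethylates arginine (ENSMUSG00000060098, chr8:106210936-106252794, plus strand), was the most abundant enzyme per length at P0 and P3. Its normalized counts were 30445, 30590.4 and 32827 at E13.5, 26391, 26098 and 23514 at E16.5, 12275, 10674 and 11839 at P0 and 28596, 27923 and 28976 at P3. P0 stood far below the 3 other stages, which were closer together. Prmt7 fell by 0.31 on the log2 scale to E16.5 (SE 0.0701, adjusted p = 7.72e-04) and by 1.13 to P0 (adjusted p = 6.17e-10), and rose by 1.30 to P3 (adjusted p = 4.59e-11). Its P3 and E13.5 libraries did not overlap, yet the difference of -0.13 was not called (adjusted p = 0.0992), the only 1 of the 48 member comparisons that was not. The first step missed the threshold with median of ratios (-0.08). With equal totals it was called in the opposite direction (0.20, adjusted p = 0.0038), and P3 was called higher than E13.5 (0.19, adjusted p = 0.00571). Smpd3 and Gm26786 share 4.376% of its exon bases, and Smpd3 had stage means of 16.1, 90.6, 763 and 52.9, highest where Prmt7 was lowest.

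At E16.5 against E13.5 all 8 members were called and 80.1% of all genes tested were too. A fall was called in 7 of 8 members against 34.6% of all genes, a rise in 1 of 8 against 45.5%, and 5 of 8 fell at least 2-fold (Prmt1, Prmt3, Prmt6, Carm1 and Wdr77) against 22.1%. The median over members was -1.76 on the log2 scale beside 0.31 over all genes. The libraries of both stages did not overlap for 8 of 8 members, as for 80.2% of all genes.

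At P0 against E16.5, 8 of 8 members were called, all lower, beside 61.0% of all genes called and 33.4% called lower. None of the 8 was called higher, beside 27.6% of all genes. The member median was -0.85 and that of all genes -0.01, and libraries did not overlap for 8 of 8 members and for 69.5% of genes. At P3 against P0, 8 of 8 were called (76.5% of all genes), 7 of them higher (40.1%) and 1 lower (36.4%). A rise of at least 2-fold was found for 6 of 8 (all but Prmt2 and Prmt5), beside 24.7% of all genes. The member median was 1.20 and that of all genes 0.05, and libraries did not overlap for 8 of 8 members and for 81.0% of genes.

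Across the whole fetal span, P0 against E13.5, 8 of 8 members were called (86.1% of all genes), 7 lower (40.5%) and Prmt2 higher (45.7%), with no overlap for 8 of 8 (88.1%). Prmt6 fell by 3.13 on the log2 scale (adjusted p = 8.49e-12), and Carm1 fell by 3.04 (adjusted p = 1.04e-12). These sizes depend on scaling, since equal totals shifted the median of all genes by 1.31 in this comparison. Over the 5 scalings Prmt6 ran from -3.15 to -1.96, Carm1 from -3.07 to -1.87 and Prmt7 from -1.46 to -0.26. At P3 against E16.5, 8 of 8 were called (69.5%), 6 higher (34.2%) and 2 lower (35.2%), with no overlap for 8 of 8 (71.6%). The 2 lower were Prmt2, at -2.85 (adjusted p = 1.89e-13), and Prmt5, at -0.96 (adjusted p = 1.04e-08). Prmt7 was among the 6 higher by only 0.17 (adjusted p = 0.0388), a call lost without any of 5 single libraries (E13.5 library 3, E16.5 library 4, or P3 library 1, 3 or 4) and turned in sign by equal totals and by median of ratios. At P3 against E13.5, 7 of 8 were called (70.4%), 6 lower (31.2%) and Prmt2 higher (39.2%), with no overlap for 8 of 8 (71.3%).

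How libraries are scaled touches these directions. With equal totals in place of the deposited size factors, the median log2 difference of all genes shifted by 0.53 at E16.5 against E13.5, by 0.69 at P0 against E16.5 and by -0.91 at P3 against P0, and the share of called genes that were higher went from 56.8% to 70.1%, from 45.2% to 78.7% and from 52.4% to 25.2%. For P0 against E13.5 it went from 53.0% to 77.2% and for P3 against E13.5 from 55.7% to 68.9%. With TMM and median-of-ratios scaling the share at P0 against E16.5 was 57.1% and 59.6%, and with median of ratios that at P3 against P0 was 38.4%. At the 3 consecutive steps the median of all genes shifted by 0.24, 0.27 and -0.47 with median of ratios and by 0.11, 0.22 and -0.31 with TMM. The sign of a member's difference held under all 5 scalings in 41 of 48 member comparisons. The fall of Prmt1, Prmt3, Prmt5, Prmt6, Carm1 and Wdr77 to E16.5 and the rise of Prmt2 did not change sign under these 5, although that of Prmt5 came to -0.03 with equal totals.

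**Figure D3:**
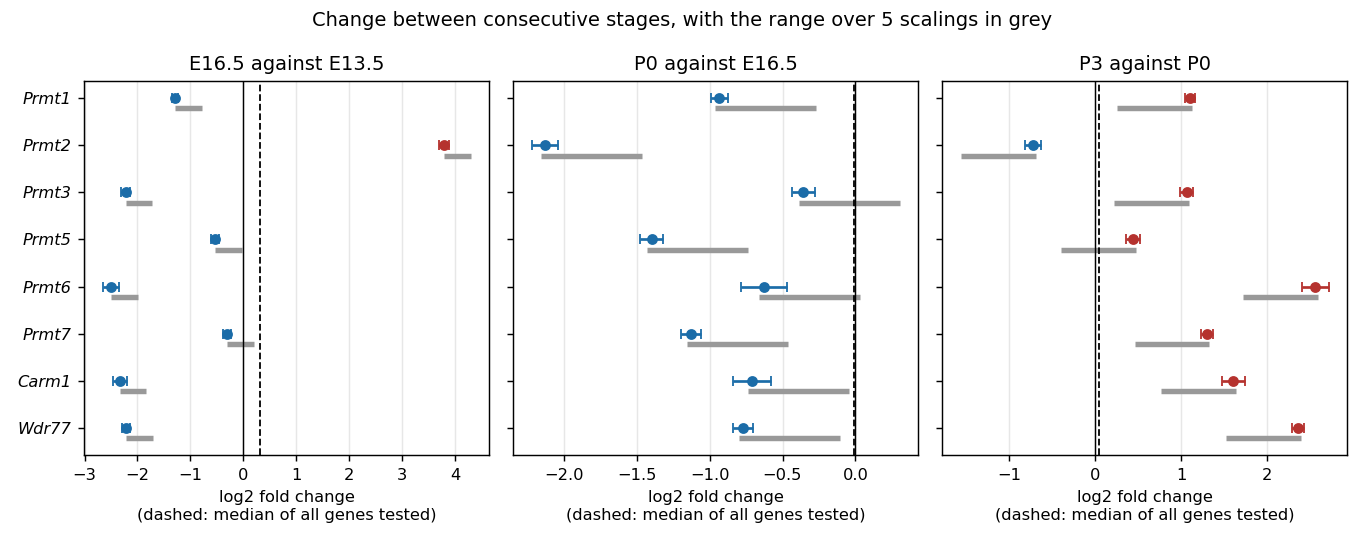
Log2 difference of each member for the 3 steps between consecutive stages; points give the deposited scaling with bars of 1 SE (red above 0, blue below), the grey marks under them span the 5 scalings, and the dashed line is the median of all genes tested. At E16.5 against E13.5 the grey marks of Prmt2 lie above 0 and those of 6 other members below it, while those of Prmt7 reach from -0.31 to 0.20.

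Per kilobase of exon, a scale on which genes can be set roughly side by side, the order of members changed with stage. Lengths are of all annotated exons merged, whichever transcripts were expressed. Other genes share 31.46% of the exon bases of Wdr77, 23.45% of Prmt6 and 21.13% of Carm1, so orders between genes are approximate. At E13.5 it ran from Prmt1 (6400.2 normalized counts per kilobase) through Prmt7 (5108), Prmt5 (4631), Wdr77 (2036), Prmt3 (1989), Carm1 (1218) and Prmt2 (478) to Prmt6 (386). At E16.5 Prmt2 led with 6679.9, ahead of Prmt7 with 4136, Prmt5 with 3211 and Prmt1 with 2609. Wdr77 and Prmt3 were neighbours whose libraries overlapped at both of these stages, as Prmt1 and Prmt5 were at P0. At P0 Prmt7 led with 1893, followed by Prmt2 with 1522, and at P3 Prmt7 led with 4653, followed by Prmt1 with 2921.

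Expressed as a share of the summed level per kilobase of the 7 enzymes, which no scaling of libraries alters, Prmt2 made up 2.37, 2.36 and 2.35 percent at E13.5 and 40.8, 37.7 and 36.5 percent at E16.5. It made up 24.5, 22.5 and 22.9 percent at P0 and 8.17, 7.80 and 7.93 percent at P3. The share of Prmt1 went the other way, with 31.7 ± 0.587 percent at E13.5 and 15.1 ± 1.54 percent at E16.5. It was 21.0 ± 1.66 percent at P0 and 25.3 ± 0.147 percent at P3 (SD, n = 3 each). Shares of a sum are tied, so a larger share of 1 enzyme makes the rest smaller. From E16.5 to P0 the level of Prmt1 per kilobase fell from 2609 to 1364 while its share rose. The share of Prmt5 was 22.9 ± 0.180, 18.5 ± 0.345, 18.7 ± 0.577 and 14.3 ± 0.102 percent from E13.5 to P3 (SD, n = 3 each). Prmt7 held 25.3 ± 0.692, 23.8 ± 0.519, 29.0 ± 1.05 and 40.3 ± 0.146 percent (SD, n = 3 each), the largest share of any enzyme at P3. The summed level itself was 20210.4 ± 417 normalized counts per kilobase at E13.5 and 17375 ± 1317 at E16.5 (SD, n = 3 each). Without Prmt2 the sums were 19733 and 10695. At P0 the sum was 6523 ± 391 and at P3 11549 ± 229 (SD, n = 3 each), or 5001 and 10629 without Prmt2. Unlike the shares, these sums change with the scaling of libraries, and so can their order between stages. They were taken with the deposited scaling only. With equal totals, Prmt7 was highest at E16.5 and Prmt5 was lowest at P3.

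**Figure D4:**
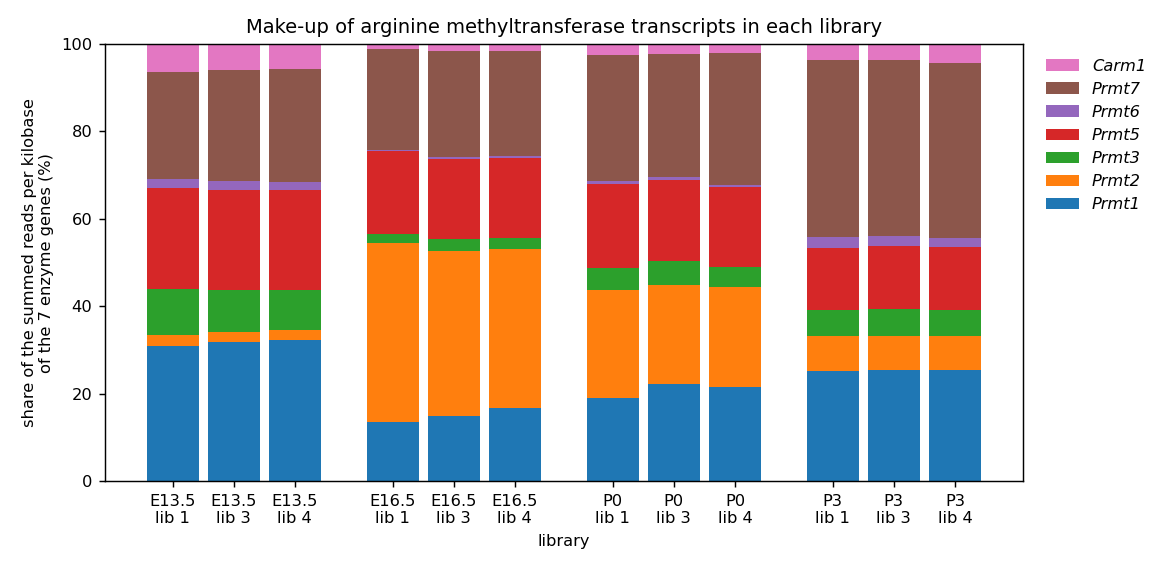
Share of each of the 7 enzymes in their summed level per kilobase of exon, in percent, with a stacked bar for each of the 12 libraries. Prmt2 takes a mean of 38.3% at E16.5 against 2.36% at E13.5, and Prmt7 40.3% at P3.

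Of the family members outside these 8, Prmt9, which methylates a splicing factor, had 6668, 6355 and 6335 normalized counts at E13.5, 12578, 11920.5 and 10793 at E16.5, 4305, 3988 and 3615 at P0 and 4139.7, 4012 and 3743 at P3. Prmt9 rose by 0.86 on the log2 scale to E16.5 (adjusted p = 2.48e-08), the direction taken by Prmt2. From P0 to P3 it was not called (adjusted p = 0.994), whereas with TMM, median-of-ratios and equal-total scaling it was called lower. Prmt8, a membrane-bound enzyme of brain, had means of 21.8, 4.97, 13.3 and 31.4 normalized counts from E13.5 to P3.

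Lists of other arginine methylation genes, 51 genes in all and all 51 tested, were set beside the members. At E16.5 against E13.5, 13 rose and 31 fell (45.5% and 34.6% of all genes), with a median of -0.53 where all genes had 0.31. At P3 against P0, 33 rose and 9 fell (40.1% and 36.4% of all genes), with a median of 0.89 where all genes had 0.05. Of the 4 partners and adaptors of Prmt5, 3 fell to E16.5 (34.6% of all genes) and none rose (45.5%). Clns1a fell by 2.36 on the log2 scale (adjusted p = 2.61e-14), the germline repressor Prdm1 (Blimp1) by 2.45 (adjusted p = 5.08e-12) and Riok1 by 0.54 (adjusted p = 4.42e-05), while Coprs gave -0.22 and missed the threshold (adjusted p = 0.0550; edgeR called it, at 0.0438). With equal totals Riok1 came to -0.03 and was not called. At P3, 3 of 4 rose and 1 fell, beside 40.1% and 36.4% of all genes. Clns1a led the rise with 1.81 (adjusted p = 1.03e-12), and Prdm1 fell by 1.17 (adjusted p = 8.74e-08).

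The spliceosomal substrates of Prmt5 moved in the same directions as Wdr77 at these steps. All 4 of the Sm and LSm genes (Snrpb, Snrpd1, Snrpd3 and Lsm4) fell to E16.5 (34.6% of all genes), with a median of -2.19. All 4 rose to P3 (40.1% of all genes), with a median of 2.03. Snrpd3 fell by 2.88 (adjusted p = 1.39e-12) and Snrpb rose by 2.26 at P3 (adjusted p = 2.11e-13). Of the 4 germline substrates, 3 rose to E16.5 (45.5% of all genes), namely Piwil1, Piwil2 and Piwil4, the PIWI proteins that carry piRNAs. Ddx4 fell by 0.25 (adjusted p = 0.00588), a call lost with median of ratios and a sign that turned with equal totals. At P3 against P0, Ddx4 and Piwil1 rose and Piwil4 fell (40.1% and 36.4% of all genes). That call of Piwil1 was lost with TMM and median-of-ratios scaling and turned in sign with equal totals. Piwil4 had 514 normalized counts at E13.5 and 32924 at E16.5, a rise of 6.0001 on the log2 scale (adjusted p = 1.60e-16). Of 11 Tudor domain readers of methylarginine, 6 rose and 4 fell at E16.5, near the shares of all genes (45.5% and 34.6%), with a median of 0.48 beside 0.31. The risers included Tdrd9 at 6.44 and Tdrd1 at 2.81 (adjusted p = 1.64e-17 and 1.50e-14), both germ granule proteins, and Smn1, of the spliceosome assembly complex, fell by 1.91 (adjusted p = 9.06e-13).

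Genes that supply the methyl donor were measured as well. Of 7 genes for S-adenosylmethionine and its products, 2 rose and 4 fell at E16.5, with a median of -0.65, beside 45.5% and 34.6% of all genes and their median of 0.31. Mat2a, the S-adenosylmethionine synthetase of most tissues, fell by 3.09 on the log2 scale, from 26449.9 to 3142 normalized counts (adjusted p = 3.03e-13). Mat1a, the synthetase typical of adult liver, rose by 5.70, from 31.1 to 1509.8 (adjusted p = 5.54e-12). Ahcy, which removes the product inhibitor S-adenosylhomocysteine, fell by 2.42 (adjusted p = 7.47e-14), and Mtap, which clears methylthioadenosine, fell by 2.90 (adjusted p = 2.59e-11). At P3 against P0, 5 of 7 rose and 1 fell, beside 40.1% and 36.4% of all genes. Ahcy rose by 2.49, Mat2a by 2.26 and Mtap by 2.08, and Mat1a fell by 2.28 (adjusted p = 1.30e-13, 2.19e-11, 2.53e-09 and 8.93e-07).

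For the type I enzymes, 7 of 8 substrates of Prmt1 fell to E16.5 (34.6% of all genes). At P3 7 of 8 rose (40.1% of all genes), and none was called in the opposite direction at either step. Khdrbs1 (Sam68) fell by 2.26 and Hnrnpa1 by 2.07 on the log2 scale (adjusted p = 9.53e-13 and 8.08e-14), and at P3 Hnrnpa1 rose by 2.28 (adjusted p = 7.72e-14). Of 5 partners of Prmt1 and Carm1, 4 fell to E16.5 (34.6% of all genes) and none rose (45.5%). The coactivator Ncoa2 fell by 2.35 and the antiproliferative Btg1 by 2.11 (adjusted p = 1.83e-11 and 1.26e-10). At P3 3 of the 5 partners rose and 1 fell, beside 40.1% and 36.4% of all genes. The coactivator Ncoa3 rose by 2.41 and its relative Ncoa1 fell by 1.92 (adjusted p = 7.16e-11 and 5.73e-09). Of the 5 substrates of Carm1, 1 rose and 2 fell at E16.5, beside 45.5% and 34.6% of all genes. At P3 2 rose and 2 fell, where 40.1% of all genes rose and 36.4% fell. Crebbp, an acetyltransferase, rose by 0.30 and its relative Ep300 fell by 0.76 at E16.5 (adjusted p = 0.00112 and 1.25e-05), the latter not called with equal totals.

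**Figure D5:**
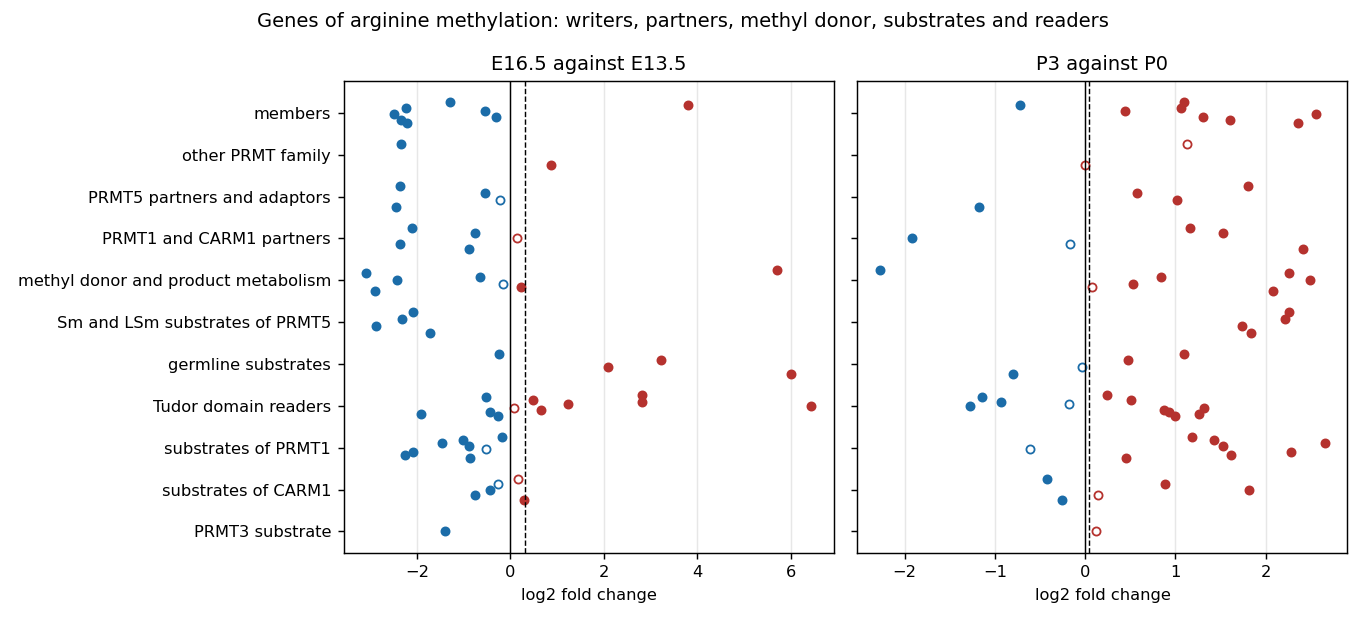
Log2 differences of the listed genes, by list, for the step from E13.5 to E16.5 and the step from P0 to P3, with a point for each gene (red higher, blue lower, filled where called) and a dashed line at the median of all genes tested. The 4 Sm and LSm genes lie below 0 at E16.5 and above 0 at P3, while the germline substrates and Tudor readers lie on both sides.

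The summed level of 7 proliferation genes (Mki67, Top2a, Mcm2, Pcna, Cdk1, Ccnb1 and Ccna2) had, with the deposited scaling, the stage order, from high to low E13.5, P3, E16.5 and P0, of the 6 members other than Prmt2 and Prmt5. It was 216407 to 226659 normalized counts at E13.5, 34493 to 37862 at E16.5, 12733 to 16637 at P0 and 150447 to 151371 at P3. The part of cell division in the members' differences was not tested.

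The genes whose pattern was most like that of each member were taken by Pearson r over the 12 libraries, as a description over libraries that share 4 stages. For Prmt2 they were Pld3 (r = 0.995), Dact3 (0.994) and Cep85 (0.994). For Wdr77 they were Nifk (0.999), Parn (0.999) and Cks1b (0.998), and 1398 genes passed 0.95. For Prmt5 they were Scamp3 (0.997), G3bp1 (0.996) and Ankzf1 (0.995), with 239 genes past 0.95, and for Prmt7 Ddx49 (0.996), Psmc3 (0.995) and Cdca8 (0.995), with 528. Prmt1 was nearest to Cct3 (0.998), Prmt3 to Pitrm1 (0.999), Prmt6 to Nsmce3 (0.997) and Carm1 to Actn4 (0.997). Past 0.95 were 819 genes for Prmt1, 877 for Prmt3, 1228 for Prmt6 and 1030 for Carm1, so such values were common.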

How the data were processed

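RNA from male germ cells of 4 stages, 3 libraries each, was sequenced after SMART-seq v4 and TruSeq mRNA preparation, per the labels' protocols. The submitters' processing notes name bcl2fastq 2.20, cutadapt 1.18, HISAT2 2.1.0, featureCounts 1.5.2, DESeq2 1.26.0 and the mouse builds mm10 and GRCm38. The annotation release, strand setting and treatment of multi-mapping reads are not given in the sources used here. The authors deposited 1 table of 55487 genes by 12 libraries as a normalized signal: read counts divided by a size factor (relative log expression) for each library. All values were whole multiples of 1 read within a tolerance of 0.001, and these recovered reads gave 40946616 to 51533747 per library. Counting error of a member (1 over the square root of its reads) was 0.584% to 5.63% and was under the spread between libraries in 30 of 32 pairs of member and stage.

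Symbols and exon lengths came from GENCODE annotation of GRCm38 by Ensembl identifier (55141 of 55487 matched), and promoter windows from RefSeq GRCm38.p6. Columns were tied to stages by name. limma 3.58.1 in R 4.3.3 was fitted to log2(normalized count + 1) of the 22384 genes that reached 10 normalized counts in 3 or more libraries, all 4 stages in 1 fit with trend, 8 residual degrees of freedom, two-sided, Benjamini-Hochberg adjustment. All 6 stage comparisons and an F-test were made. Fold changes are on that log2 scale, which understates low genes. Alternatives were other scalings, pseudocounts, filters and thresholds, edgeR 4.0.16 and DESeq2 1.42.0 on recovered reads, 2-stage fits and leaving out each library; a block by column number was added after seeing the data. The fit was tested on simulated data. All 8 members were named; of the lists, any gene could be named where a list had 5 or fewer and otherwise 1 of the 4 with the largest called change, and 3 genes of highest r per member. The members and lists were chosen with earlier results of these data known. The values of 1 listed gene are not reported here.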

Additional observations from a re-analysis of the deposited data

How the results depend on the processing

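Columns are numbered 1, 3 and 4 and titles otherwise, so no source says that a column number pairs libraries. In a fit with that number as a replicate block, chosen after seeing the data, all 48 member comparisons kept their direction and side of the threshold and 17911 genes were called at E16.5 against E13.5 (17932 without the block). Deviations from stage means of libraries with the same number correlated at -0.0356 to 0.0423 over genes, and 2 of 12 libraries correlated best with their own number. With edgeR and with DESeq2 on recovered reads, all 48 member comparisons kept their direction and side of the threshold; this also held with no filter and with a mean of at least 100. Leaving out each library in turn gave 8 to 8 members called in each comparison, except 6 to 8 at P3 against E16.5 and 7 to 7 at P3 against E13.5, where 7 were called. In fits of only the 2 stages compared, the P3 against E16.5 calls of Prmt1 and Prmt7 were lost (adjusted p = 0.0704 and 0.071, limma) and Prmt7 was called at P3 against E13.5 (adjusted p = 0.0352).

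Equal totals left 5 of the 8 members called at P0 against E16.5, and turned the sign of these log2 differences: Prmt1 at P3 against E16.5 (-0.014), Prmt3 (0.31) and Prmt6 (0.031) at P0 against E16.5, Prmt5 at P3 against P0 (-0.40), and Prmt7 at E16.5 (0.20) and P3 (0.19) against E13.5 and at P3 against E16.5 (-0.0060). At E16.5 against E13.5 it also turned Coprs (0.29), Ddx4 (0.26) and Smarcc1 (0.062), and at P3 against P0 Prmt9 (-0.84), Riok1 (-0.27), Piwil1 (-0.36), Ep300 (-0.70) and Rps2 (-0.72). Median of ratios turned Prmt1 (-0.019) and Prmt7 (-0.011) at P3 against E16.5, and Prmt9 (-0.44) and Ep300 (-0.30) at P3 against P0. TMM factors turned Prmt9 at P3 against P0 (-0.29). At P3 against P0 the uncalled values of Ep300 (-0.15 with TMM) and Rps2 (-0.17 with TMM, -0.32 with median of ratios) also changed sign without being called. These changes go with the size factors given above, and why the factors of the scalings differ was not tested.

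A mean of at least 100 left fewer genes to test, with 11459 of all genes called at E16.5 against E13.5 (17932 as reported), 11249 at P3 against P0 (17122), 11968 at P0 against E13.5 (19280) and 13040 among the 4 stages (21300). Asking also for a 2-fold difference left 7604 genes at P0 against E16.5 (13658), 10138 at P3 against E16.5 (15550) and 10162 at P3 against E13.5 (15755), and 3, 3 and 4 members in those comparisons.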
